A study of Mus musculus with 8 samples.

Results

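Kidney allograft tissue was compared with the blood of kidney graft recipients by Microwell-seq, a single-cell RNA-seq method in which single cells are lysed in agarose microwells beside barcoded beads and the 3′ ends of their transcripts are counted as unique molecular identifiers (UMIs). BALB/c kidneys were grafted into C57BL/6 recipients without immunosuppression while the recipients' own kidneys stayed in place, and cells were taken on day 7. A pair of kidney recipients was used, and whether each library pools both was not given in the sources used here. All 3 libraries carry the labels BALB/c, male, 8 weeks of age and kidney. PBMC is the blood library, TIL holds the lymphocytes that a Ficoll-Paque density gradient recovered from the collagenase-digested graft, and PC holds the digested solid organ itself. Each library stands for 1 sample, so no test between conditions was possible, and every difference below is a description of these libraries.

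Of 30000 barcodes in the 3 kidney tables, among 80000 in all 8 tables of the series, 14422 held at least 300 UMIs and were kept as cells: 3503 in PBMC, 5475 in TIL and 5444 in PC. The minimum was set at 300 because only 1143, 2005 and 795 barcodes reached 500 UMIs. A cell was counted as CD3-gated when its UMIs of Cd3d, Cd3e, Cd3g and Trac, which encode constant parts of the T cell receptor complex, came to at least 2 and it held no UMI of Csf1r, the receptor for macrophage colony-stimulating factor. The gate took 664 cells or 19.0% of PBMC (exact binomial 95% interval 17.7 to 20.3%), 2212 or 40.4% of TIL (39.1 to 41.7%) and 1508 or 27.7% of PC (26.5 to 28.9%), which makes 4384 gated cells. When each cell was thinned to 300 UMIs the shares were 9.08%, 23.4% and 19.4%, so the order of the libraries stayed the same at equal depth. The gate was applied again to thinned cells, so some gated cells became ungated. Between 229 and 259 barcodes were shared by any pair of these libraries, of which 49 to 72 were kept as cells in both.

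In acute rejection, recipient T cells enter the graft, where they release cytotoxic granules and interferon gamma. Interferon gamma induces MHC class II molecules and the CXCR3 ligands Cxcl9, Cxcl10 and Cxcl11 in macrophages and parenchymal cells, and these chemokines attract more T cells. Circulating T cells carry egress receptors such as S1pr1, which depends on the transcription factor Klf2 and is lost when T cells stay in tissue. In the kidney, the proximal tubule is the largest mass of parenchyma and a target of rejection.

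Gated cells held a median of 639, 498 and 394 UMIs in PBMC, TIL and PC, and ungated cells 384, 400 and 360. The tables held 3450766, 3935284 and 3418722 UMIs in all, with 1.0 to 1.11% of them from the mitochondrial genome in kept cells, and the gated sums were 591399, 1289329 and 658117 UMIs. Levels are given as counts per 1000000 UMIs of the summed cells (CPM), with exact Poisson 95% intervals in brackets that cover counting error only. At these sums, a gene with no UMI could still lie at up to 5.07, 2.33 or 4.56 CPM, the level of 3 counts in each library. A log2 ratio compares tissue with PBMC after adding 1 CPM to each side and was taken for genes with at least 20 UMIs on 1 side. The added 1 CPM shrinks the ratio of low genes measured on both sides. For a gene without a UMI on 1 side the ratio rests on it and can exceed the bound from 3 counts. A gene near 0 on the other side then had to differ, so counts and medians of a list describe the members that passed. A gene was called higher or lower when it differed by at least 2-fold.

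The label T cell was checked against other T cell markers, among them Lck, Lat, Thy1 and Cd2, of which 11 were measured in PBMC and 10 in each tissue library. They were higher in gated than in ungated cells of the same library by a median of 2.18-fold in PBMC, 1.30-fold in TIL and 1.17-fold in PC. At least 2-fold higher in gated than ungated cells were 442 of 5603 genes (7.89%) in PBMC, 60 of 6254 (0.959%) in TIL and 11 of 5954 (0.185%) in PC. In the tissue libraries the gate therefore separated cells little, and its cells are called gated cells here, with the ungated level beside the genes described most fully. The summed T cell markers stood at 11953, 14045 and 13729 CPM in gated and 4755, 8216 and 8057 CPM in ungated cells, in the order PBMC, TIL and PC that is kept throughout. This sum includes the gate genes, so its excess in gated cells was set in part by the gate. Neutrophil markers summed to 32222, 333 and 552 CPM in gated and 108798, 521 and 719.7 CPM in ungated cells, markers of monocytes and macrophages to 4412, 8442 and 19608 CPM in gated and 10572, 17401 and 23673 CPM in ungated cells, and proximal tubule markers to 227, 3036 and 7829.9 CPM in gated and 226, 5994 and 10351 CPM in ungated cells. A gate that also left out every cell with a UMI of Lyz2, S100a8, S100a9, Cd79a, Kap or Hbb-bs kept 5.57% of TIL, 0.0551% of PC and 0 of 3503 PBMC cells, which allows a share of up to 0.0856%, so no ratio could be taken from it. Markers of other cell types were thus counted in gated cells of every library, those of neutrophils in blood and those of macrophages and tubules in the graft. Their part in any ratio below was not tested.

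**Figure D1:**
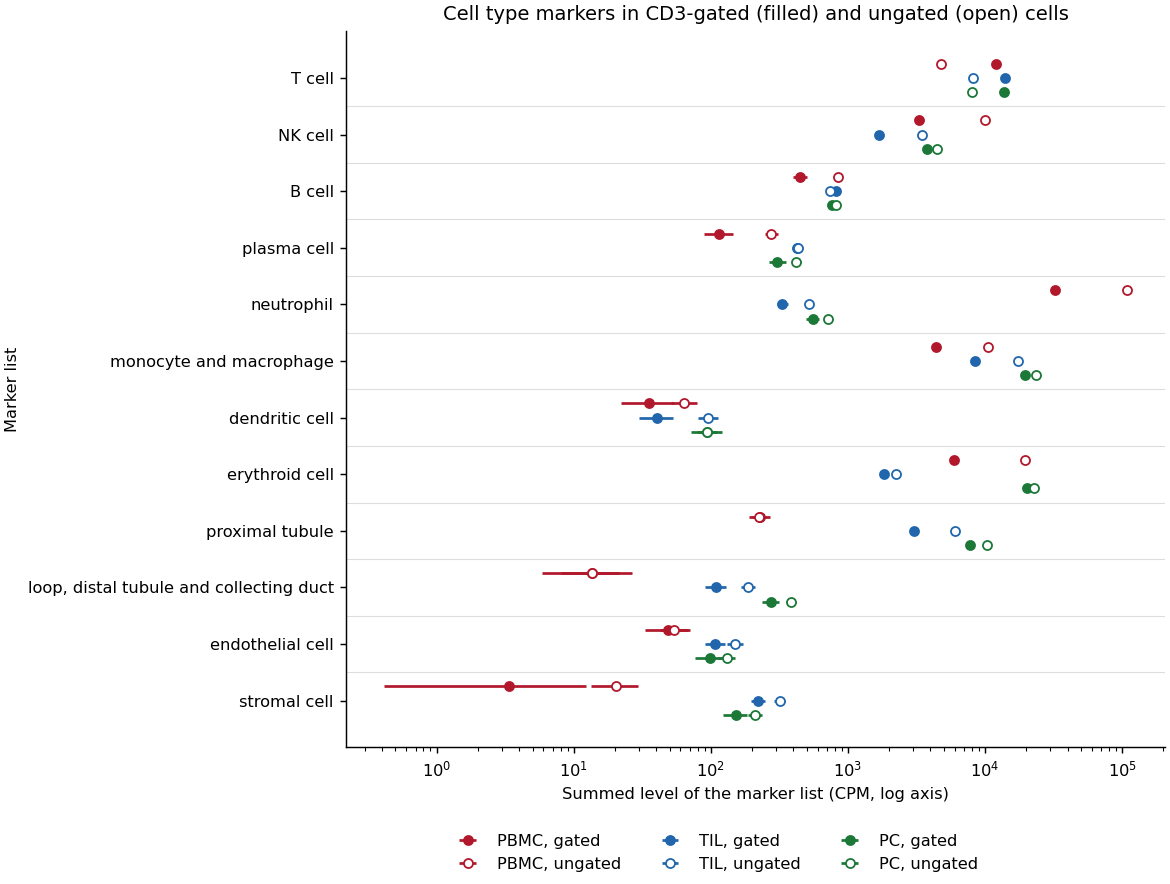
Summed level of 12 cell type marker lists in gated (filled) and ungated (open) cells of PBMC, TIL and PC, in CPM on a log axis with exact Poisson 95% intervals as bars. The T cell list includes the gate genes. Neutrophil markers lie between 32222 and 108798 CPM in PBMC and at most at 719.7 CPM in the graft, and proximal tubule markers lie between 3036 and 10351 CPM in the graft and near 227 CPM in PBMC.

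Between gated cells of TIL and PBMC, 734 of 5566 genes were at least 2-fold higher in TIL (13.2%) and 468 at least 2-fold lower (8.41%). Between gated cells of PC and PBMC, 721 of 4364 genes were higher (16.5%) and 658 lower (15.1%). Both comparisons use the same PBMC library, so their values are set side by side and are not independent of each other. The median log2 ratio of all genes was 0.20 in TIL and 0.14 in PC, and with scaling by the median ratio the calls came to 515 higher and 654 lower in TIL and 570 higher and 764 lower in PC. Thinning moved the calls the other way, to 777 higher and 159 lower in TIL and 714 higher and 169 lower in PC. Thinned gated cells held 95400 UMIs in PBMC, 384900 in TIL and 316200 in PC. The minimum of 20 UMIs thus lay at a higher CPM in blood, so low genes could pass it more easily through tissue than through blood. Its part in the calls after thinning was not tested. Without thinning the gated sum was also smaller in blood than in TIL, so the balance of calls depends on this minimum. Of the genes called higher, leaving out the gate genes, 54 of 734 in TIL (7.36%) and 29 of 720 in PC (4.03%) were also at least 1.5-fold higher in gated than ungated cells of that tissue library, whereas 304 (41.4%) and 373 (51.8%) were higher in ungated cells. Of the genes called lower, 132 of 468 (28.2%) and 266 of 658 (40.4%) were at least 1.5-fold higher in gated than ungated blood cells. Over all genes measured in a library that share was 5.42% in TIL, 4.10% in PC and 25.4% in PBMC, so the share of higher genes lay near it, in PC just below, and that of lower genes lay near it in the comparison with TIL. Xcl1, Pdcd1, Psat1 and Rgs16 were among the first set in TIL, Ccl4 and Il21r in PC, and Ctla4, Gzmb, S100a10 and Cd48 were in the second set for both. This split was added after the data had been seen.

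The genes furthest above PBMC in gated cells of both tissue libraries were mostly not T cell genes, although the T cell chemokine Ccl1 was among them in TIL. C1qb, C1qa and C1qc of the first complement component, the chemokine Ccl8 and the glutathione peroxidase Gpx3 led in both, followed by the tubule genes Fxyd2 and Guca2b and the CXCR3 ligand Cxcl11. C1qb and Ccl8 had no UMI in gated blood cells, so their rank rests on the added 1 CPM and not on a measured ratio. Furthest below PBMC in both stood the neutrophil genes S100a9, S100a8, Retnlg, Stfa2l1 and Cxcr2 and the histidine decarboxylase gene Hdc.

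Among effector chemokines, 5 of 6 measured members were at least 2-fold higher and 1 at least 2-fold lower in TIL, against 5 and 1 of 6 in PC, with a median log2 ratio of 2.23 in TIL and 2.21 in PC. Over all kept cells, 3 of 6 were higher and 1 lower in each, with medians of 1.31 in TIL and 0.73 in PC. Xcl1 (chr1:164931644-164935527, the span of the whole gene in GENCODE M21 on GRCm38, as for the positions that follow), which encodes the chemokine that attracts cross-presenting dendritic cells, stood at 52.4 CPM (35.6 to 74.4) in PBMC, 614 CPM (572 to 659) in TIL and 366 CPM (321 to 415) in PC. Its log2 ratios were 3.53 and 2.78, the intervals of the tissue libraries lay far above that of blood, and TIL was the highest. Ungated cells held 43.0, 407 and 252 CPM. A UMI of Xcl1 was found in 3.46%, 19.1% and 12.7% of gated and 1.55%, 11.6% and 8.13% of ungated cells, and after thinning in 0.943%, 11.5% and 8.06% and 0.973%, 9.52% and 7.22%. At equal depth the share of barcodes with an Xcl1 UMI was thus above blood in both tissue libraries. In blood the gated share was above the ungated one before thinning and near it after. Only 318 thinned blood cells were gated, so the order of these shares is not read.

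Ccl1, a T cell chemokine that binds CCR8, had no UMI in gated blood cells and stood at 0, 69.0 and 59.3 CPM, so against the level of 3 counts in blood, the bound used for every gene without a UMI, it was at least 13.6-fold higher in TIL and at least 11.7-fold higher in PC. The inflammatory chemokine Ccl3 stood at 22.0, 192 and 128 CPM and Ccl4 at 77.8, 205 and 188 CPM, with log2 ratios of 3.07 and 2.48 and of 1.39 and 1.27. When cells were thinned, Ccl4 fell under the 2-fold mark in both (0.70 and 0.36) and so did Ccl3 in PC (0.78), which took the median of the list in PC to 0.57. Ccl5 differed from the others: gated cells held 5286 CPM (5102 to 5474) in PBMC, 1391 CPM (1327 to 1457) in TIL and 2115 CPM (2005 to 2229) in PC, log2 ratios of -1.93 and -1.32, and ungated blood cells held still more, with 8425, 1833 and 2217 CPM. Ccl5 was the single member of its list that was lower in the graft.

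Of the cytotoxic effector genes, 1 of 12 measured members was at least 2-fold higher and 2 at least 2-fold lower in TIL, against 2 and 3 of 11 in PC, and the medians were -0.10 in TIL and -0.24 in PC. These counts lay near the shares of all genes, 13.2% higher and 8.41% lower in TIL and 16.5% and 15.1% in PC. Ifng, which encodes interferon gamma, stood at 65.9 CPM (46.9 to 90.1) in PBMC, 298 CPM (269 to 329) in TIL and 310.0 CPM (269 to 356) in PC and was higher in both tissue libraries by log2 ratios of 2.16 and 2.22, with 43.0, 291 and 250.5 CPM in ungated cells. Granzyme A (Gzma, chr13:113093825-113100981) went the other way, with 2487 CPM (2362 to 2618) in PBMC, 403 CPM (369 to 439.5) in TIL and 460.4 CPM (410.0 to 515) in PC and log2 ratios of -2.62 and -2.43. In ungated cells Gzma stood at 5719.9, 545 and 483 CPM, and 64.3%, 15.9% and 16.1% of gated cells held a UMI, against 69.1%, 15.6% and 15.2% of ungated cells. Thinned shares were 49.7%, 11% and 12.0% of gated and 57.7%, 11% and 12.5% of ungated cells, so at equal depth fewer barcodes held a Gzma UMI in both tissue libraries. Shares inside the gate lay at or near those outside it, so a UMI of Gzma did not mark gated cells. Granzyme B (Gzmb) was lower as well, with 1141, 513 and 374 CPM and log2 ratios of -1.15 and -1.61 and 629, 349.9 and 284 CPM in ungated cells, although thinning took it under the mark in TIL (-0.82). Granzyme K (Gzmk) was under 2-fold in TIL (-0.25) and stood at 1.70 after thinning. The granule protein Nkg7 stood at 2817, 2921 and 2892 CPM, and perforin (Prf1) at 84.5, 106 and 71.4 CPM. Neither reached 2-fold in either comparison, and thinning took Prf1 past it in PC (-1.13). Cytotoxic genes therefore did not share 1 direction: Ifng was higher and granzymes A and B were lower in both tissue libraries, while in PC the lysosomal membrane gene Lamp1 was also higher (0.96 and 1.20) and the protease inhibitor Serpinb6b also lower (-0.60 and -1.21).

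Pdcd1 (chr1:94038305-94052553), which encodes the inhibitory receptor PD-1, stood at 76.1 CPM (55.5 to 102) in PBMC, 277 CPM (249 to 307) in TIL and 185 CPM (154 to 221) in PC, with log2 ratios of 1.85 and 1.27. Ungated cells held 24.1, 177 and 176 CPM. At equal depth, 1.57%, 8.34% and 5.79% of gated cells held a UMI and 0.816%, 5.65% and 4.94% of ungated cells, before thinning 5.42%, 13.9% and 7.56% and 1.13%, 7.60% and 6.61%. The tissue libraries lay above blood in each of these measures, with TIL above PC, and a gate of at least 3 UMIs took Pdcd1 under the 2-fold mark in PC (0.88). Ctla4 (chr1:60887000-60915832), an inhibitory receptor that T cells show after activation and that regulatory T cells carry, had the opposite order. It stood at 793 CPM (723 to 868) in PBMC, 109 CPM (91.3 to 128) in TIL and 45.6 CPM (30.8 to 65.1) in PC, log2 ratios of -2.86 and -4.09, and in ungated cells at 179, 82.0 and 42.2 CPM. A UMI of Ctla4 was found in 32.1%, 5.97% and 1.99% of gated and 6.83%, 3.56% and 1.65% of ungated cells, and after thinning in 13.2%, 3.90% and 1.52% and 6.12%, 2.27% and 1.16%. Gated blood cells thus held the highest level of Ctla4 of all gated and ungated groups. Klrg1, carried by terminal effector cells, stood at 65.9, 15.5 and 7.60 CPM. Lag3 stood at 65.9, 105 and 128 CPM, under 2-fold in both comparisons, but passed it in TIL after thinning (1.20) and in PC with a minimum of 500 UMIs (1.07) or without shared barcodes (1.06). Of all inhibitory receptor genes, 3 of 8 measured members were at least 2-fold higher and 2 at least 2-fold lower in TIL, against 1 and 2 of 6 in PC. Over all genes the shares were 13.2% higher and 8.41% lower in TIL and 16.5% and 15.1% in PC.

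The costimulatory receptors 4-1BB (Tnfrsf9) and OX40 (Tnfrsf4) were higher in both tissue libraries, Tnfrsf9 with 33.8, 103 and 91.2 CPM and Tnfrsf4 with 28.7, 134 and 129 CPM, or log2 ratios of 1.58 and 1.40 and of 2.18 and 2.13. Icos stood at 115, 205 and 207 CPM, under 2-fold in both comparisons, and passed it in TIL with a minimum of 500 UMIs (1.05). The early activation marker Cd69 and the adhesion receptor Cd44 were lower, at 120.1, 30.2 and 25.8 CPM and 103, 41.1 and 27.4 CPM. In the whole list of costimulation and activation genes, 3 of 11 measured members were at least 2-fold higher and 2 at least 2-fold lower in TIL, against 2 and 2 of 10 in PC. In PC these shares lay near those of all genes.

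Genes of naive and circulating T cells were more often lower than higher: 0 of 11 measured members were at least 2-fold higher and 8 at least 2-fold lower in TIL, against 0 and 8 of 11 in PC, with medians of -1.53 in TIL and -2.02 in PC. Il7r, S1pr1 and Lef1 passed the minimum of 20 UMIs only through blood, with 22, 25 and 24 UMIs there. In the comparison with PC, Klf2 and Klf3 also passed it only through blood. Klf2, the transcription factor that keeps T cells in circulation, stood at 108 CPM (83.3 to 138) in PBMC, 37.2 CPM (27.4 to 49.4) in TIL and 12.2 CPM (5.25 to 24.0) in PC, and in ungated cells at 145, 31.3 and 17.5 CPM. Its log2 ratios were -1.51 and -3.05, and those of its relative Klf3 were -3.69 and -4.76, with 232, 17.1 and 7.60 CPM. The egress receptor S1pr1 stood at 42.3, 14.0 and 9.12 CPM and the interleukin 7 receptor Il7r at 37.2, 7.76 and 0 CPM. Il7r rested on 22, 10 and 0 UMIs and was at least 8.16-fold lower in PC. Tcf7, a transcription factor of naive and memory T cells, stood at 101, 41.1 and 47.1 CPM and fell short of 2-fold under a gate of at least 3 UMIs in both comparisons (-0.99 and -0.68), and in PC also with a minimum of 500 UMIs (-0.83) or a pseudocount of 10 CPM (-0.96). No measured member of this list was at least 2-fold higher in either tissue library.

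Of the genes for tissue homing and residency, 1 of 10 measured members was at least 2-fold higher and 3 at least 2-fold lower in TIL, against 1 and 3 of 10 in PC. The higher share was no larger than that of all genes, 13.2% in TIL and 16.5% in PC, while 8.41% and 15.1% of all genes were lower. The residency chemokine receptor Cxcr6 was the higher one, with 45.7, 137 and 114 CPM, while Cxcr3, the receptor for Cxcl9 and Cxcl10, stood at 188, 178 and 155 CPM and did not reach 2-fold in either, although thinning put it at 1.07 in TIL. The integrin subunit Itga4 was lower, at 257, 79.9 and 34.9 CPM, and so was Rgs1, a brake on chemokine receptor signalling, at 145, 53.5 and 31.9 CPM. Among 6 measured lymphocyte transcription factors, 2 were higher in each tissue library and none lower. Id3, an inhibitor of E proteins, stood at 13.5, 121 and 108 CPM and Irf8 at 47.3, 182 and 270.5 CPM. In the whole table of TIL, Irf8 was under 2-fold (0.94). Cd8a was at 517, 914 and 745 CPM, Cd8b1 at 1219, 1191 and 1071 CPM and Cd4 at 44.0, 14.7 and 7.60 CPM, the last on only 26, 19 and 5 UMIs. CD8 transcripts far outnumbered those of Cd4 in gated cells of all 3 libraries.

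**Figure D2:**
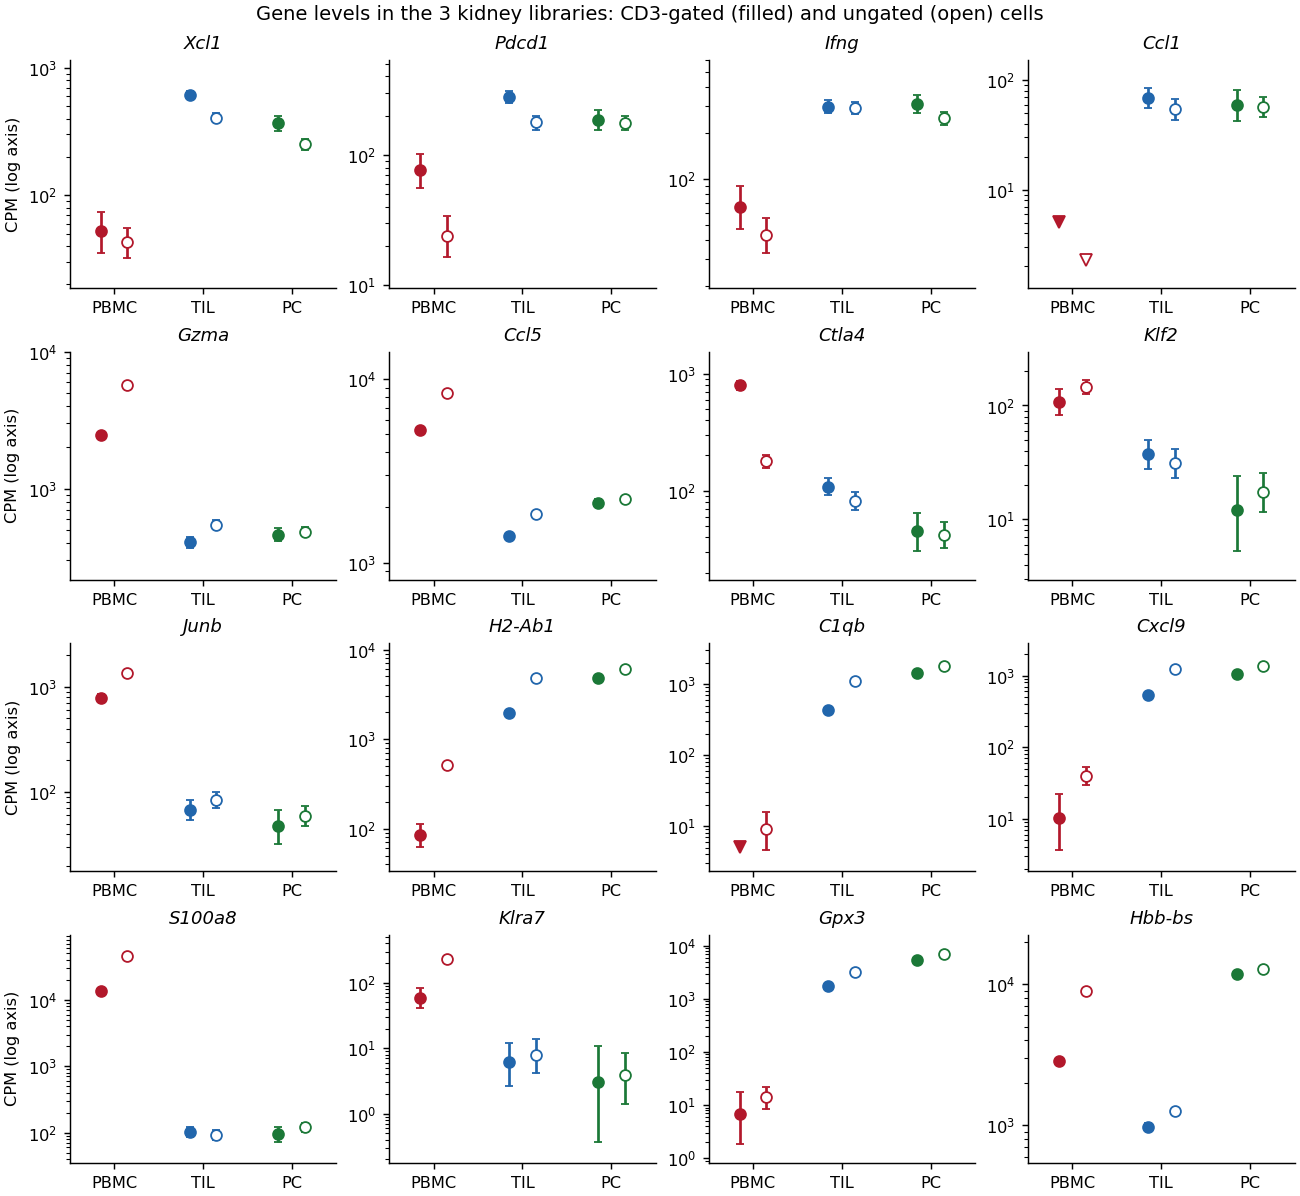
Levels of 16 named genes in gated (filled) and ungated (open) cells of the 3 kidney libraries, in CPM on a log axis, with exact Poisson 95% intervals as bars and triangles at the level of 3 counts where no UMI was found. Xcl1, Pdcd1, Ifng and Ccl1 lie higher in TIL and PC than in PBMC, Gzma, Ccl5, Ctla4, Klf2 and Junb lie lower, and in most panels gated and ungated tissue cells lie close together.

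Immediate early and heat shock genes, which respond within minutes to stimulation or handling, were more often lower than higher in tissue: 2 of 17 measured members were at least 2-fold higher and 8 at least 2-fold lower in TIL, against 1 and 8 of 16 in PC. Junb, an AP-1 subunit, stood at 783 CPM (713 to 858) in PBMC, 68.3 CPM (54.7 to 84.1) in TIL and 47.1 CPM (32.0 to 66.9) in PC, log2 ratios of -3.50 and -4.03, and in ungated cells at 1364, 84.7 and 59.7 CPM. The phosphatase gene Dusp1 stood at 315, 30.2 and 28.9 CPM, Fos at 118, 15.5 and 34.9 CPM, the mRNA decay factor Zfp36 at 181, 28.7 and 30.4 CPM and Nfkbia, an inhibitor of NF-kappaB, at 590.1, 176 and 173 CPM. The inducible heat shock gene Hspa1a went the other way: it had no UMI in gated blood cells, stood at 0, 46.5 and 41.0 CPM, and was at least 9.17-fold higher in TIL and at least 8.09-fold higher in PC. Digestion applied to tissue and not to blood, so handling and location cannot be told apart for these genes.

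Interferon-stimulated genes were more often lower than higher in the graft. Over all genes 13.2% were higher and 8.41% lower in TIL, and 16.5% and 15.1% in PC. Of this list, 2 of 30 measured members were at least 2-fold higher and 11 at least 2-fold lower in TIL, against 3 and 8 of 30 in PC, with medians of -0.82 in TIL and -0.19 in PC. Ifit3 stood at 189, 21.7 and 28.9 CPM and Isg15, a ubiquitin-like antiviral protein, at 293, 82.2 and 139.8 CPM, both lower in the graft. Gbp2, a guanylate-binding protein, stood at 516, 252 and 483 CPM with log2 ratios of -1.03 and -0.09, and in TIL it fell short of 2-fold with a minimum of 500 UMIs (-0.90), without shared barcodes (-0.98) and under a gate of at least 3 UMIs (-0.92). Of the class I genes, H2-D1 was lower in both with 3154, 1361 and 1284 CPM, B2m stood at 8703, 4730.4 and 4171 CPM and reached 2-fold only in PC (-0.88 and -1.06), and H2-K1 stood at 1951, 1307 and 1498 CPM, under 2-fold in both comparisons. With a minimum of 500 UMIs, B2m and Isg15 fell short of 2-fold in PC as well (-0.92 and -0.74), and with median-ratio scaling B2m passed it in TIL (-1.08). Ifit3, Isg15, Gbp2 and H2-D1, called lower in TIL, were not at least 1.5-fold higher in gated than ungated blood cells. The surface protein Ly6a was higher in both tissue libraries, with 1238, 3473 and 6093 CPM. H2-D1 and H2-K1 are closely related and differ between donor and recipient strain, so their counts may depend on how reads were assigned, which was not tested.

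MHC class II presentation genes were higher as a group in gated cells of both tissue libraries: 7 of 8 measured members were at least 2-fold higher and 0 at least 2-fold lower in TIL, against 8 and 0 of 8 in PC, with medians of 3.33 in TIL and 4.86 in PC. H2-Ab1 (chr17:34257689-34269419), the beta chain of I-A, stood at 84.5 CPM (62.8 to 111) in PBMC, 1970.0 CPM (1894 to 2048) in TIL and 4762 CPM (4597 to 4932) in PC, log2 ratios of 4.53 and 5.80. Ungated cells held 510.2, 4807 and 6112 CPM, more than gated cells in every library. A UMI was found in 5.12%, 57.1% and 80.0% of gated and 11.6%, 67.7% and 83.3% of ungated cells, or 4.40%, 43.6% and 72.4% and 8.04%, 54.0% and 76.9% after thinning. The shares inside the gate were thus at or below those outside it, which stand as the background, and are not read as T cells expressing class II genes. Cd74, the invariant chain, stood at 319.6, 3024 and 8681 CPM, H2-Aa, the I-A alpha chain, at 105, 986 and 2226 CPM and H2-Eb1, the I-E beta chain, at 84.5, 1118 and 2647 CPM. The peptide loading genes H2-DMa, H2-DMb1 and H2-DMb2 stood at 74.4, 262 and 652 CPM, 5.07, 131 and 308 CPM and 1.69, 27.9 and 88.1 CPM, and each was higher in PC than in TIL and higher in TIL than in blood. H2-DMb1 and H2-DMb2 were near 0 in blood and reached the UMI minimum only through the tissue libraries. Their direction against blood was thus set by that minimum. Of 10 listed class II genes 8 were measured, so the counts and medians describe the members that passed. H2-DMb1 and H2-DMb2 are close copies between which reads may be split.

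Class II genes are known to share upstream promoter elements, one of which holds a CCAAT box in reverse. The stretches from 120 to 21 bases before the transcription start of H2-Aa (chr17:34287844-34287943, minus strand) and H2-Eb1 (chr17:34305747-34305846, plus strand) are shown for comparison, since both genes stood above blood in both tissue libraries (RefSeq, GRCm38.p6). Capitals mark TGATTGG, whose first base lies 50 bases before the start in H2-Aa and 61 bases before it in H2-Eb1.
H2-Aa: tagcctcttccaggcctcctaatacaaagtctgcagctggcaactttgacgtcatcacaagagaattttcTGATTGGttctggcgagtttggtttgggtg
H2-Eb1: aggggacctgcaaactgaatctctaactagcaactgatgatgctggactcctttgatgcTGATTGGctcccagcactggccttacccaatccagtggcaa
Of 9 class II genes other than Cd74, 7 had a promoter in the table, and 6 of these held TGATTGG or its reverse complement CCAATCA between 250 bases before and 50 after the start: H2-Aa, H2-DMb1, H2-DMb2, H2-Eb1, H2-Oa and H2-Ob. Of all 32851 promoters of that length, 2568 held it (7.82%). The letters were chosen after these promoters had been read, and a match is a description of sequence only.

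Macrophage genes stood high in gated cells of the graft. Of the markers of monocytes and macrophages, 11 of 13 measured members were at least 2-fold higher and 0 at least 2-fold lower in TIL, against 12 and 0 of 13 in PC, although the gate left out any cell with a Csf1r UMI. Members near 0 in blood, such as C1qa and C1qb, reached 20 UMIs only through the tissue library, so the minimum set their direction and the counts describe the members that passed it. C1qb had no UMI in gated blood cells and stood at 0, 436 and 1459 CPM, so it was at least 85.9-fold higher in TIL and at least 288-fold higher in PC. C1qa (chr4:136895917-136898803) stood at 1.69, 392 and 1047 CPM, the lysozyme gene Lyz2 at 1379.8, 3656 and 10855 CPM, the lipid carrier Apoe at 13.5, 105 and 356 CPM and the secreted phosphoprotein Spp1, osteopontin, at 6.76, 313 and 939 CPM. Each of these was higher in PC than in TIL. Ungated cells held 9.04, 1099.8 and 1803 CPM of C1qb and 5702, 8417 and 12949 CPM of Lyz2, and thinning took Lyz2 under the 2-fold mark in TIL (0.77).

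Ligands of CXCR3 and of CCR receptors followed the macrophage genes, with medians of 4.65 in TIL and 5.49 in PC, or 2.81 and 3.14 with genes absent from 1 side set at their bound. In this list, 6 of 8 measured members were at least 2-fold higher and 2 at least 2-fold lower in TIL, against 7 and 2 of 9 in PC. Cxcl9 stood at 10.1 CPM (3.72 to 22.1) in PBMC, 527 CPM (489 to 569) in TIL and 1047 CPM (970.2 to 1128) in PC, log2 ratios of 5.57 and 6.55, and in ungated cells at 39.9, 1248 and 1343 CPM. Cxcl10 stood at 37.2, 202 and 336 CPM and Cxcl16, the ligand of Cxcr6, at 1.69, 102 and 295 CPM. The monocyte attractants Ccl8 and Ccl12 had no UMI in gated blood cells: Ccl8 was at least 51.5-fold higher in TIL and at least 118-fold higher in PC, and Ccl12 was at least 9.33-fold higher in TIL and at least 24.3-fold higher in PC. The members below blood were Cxcl2, which attracts neutrophils, at 164, 3.88 and 0 CPM, and Ccl6, a chemokine of myeloid cells, at 590.1, 103 and 232 CPM.

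Proximal tubule markers stood far above blood in gated cells of both tissue libraries. Of proximal tubule markers, 10 of 11 measured members were at least 2-fold higher and 0 at least 2-fold lower in TIL, against 11 and 0 of 12 in PC, with medians of 5.75 in TIL and 6.15 in PC, or 3.89 and 4.51 with absent genes at their bound, which in PC is below the median of the class II list. Genes near 0 in blood, in this list and in those of chemokine ligands and kidney injury, reached 20 UMIs only through the tissue library, so these counts and medians describe the members that did. Gpx3 (chr11:54902453-54910377), the plasma glutathione peroxidase that proximal tubule cells secrete, stood at 6.76 CPM (1.84 to 17.3) in PBMC, 1725 CPM (1654 to 1798) in TIL and 5469 CPM (5291 to 5650.3) in PC, log2 ratios of 7.80 and 9.46. In ungated cells it stood at 14.3, 3145 and 7009 CPM, and 0.602%, 52.2% and 85.5% of gated against 0.669%, 51.7% and 83.5% of ungated cells held a UMI, or 0.314%, 40.9% and 75.5% and 0.440%, 38.9% and 77.0% after thinning. Gated and ungated tissue cells thus held the transcript in like shares. The androgen-regulated Kap stood at 6.76, 482 and 631 CPM, the inositol oxygenase Miox at 0, 52.7 and 89.6 CPM and the sodium pump regulator Fxyd2 at 1.69, 151 and 577 CPM. Miox was at least 10.4-fold higher in TIL and at least 17.7-fold higher in PC.

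Markers of tubule injury were measured in the same cells: 5 of 7 measured members were at least 2-fold higher and 2 at least 2-fold lower in TIL, against 6 and 1 of 8 in PC, with medians of 4.24 in TIL and 5.39 in PC, or 1.81 and 3.01 with absent genes at their bound. Thinning took the median in TIL to 0.61. Log2 ratios of the members ranged from -3.65 to 5.57 in TIL and from -1.65 to 7.26 in PC, and the members named here are among the higher ones. Kim-1 (Havcr1), which injured proximal tubule cells shed into urine, had no UMI in gated blood cells and stood at 0, 17.8 and 44.1 CPM, so it was at least 3.52-fold higher in TIL and at least 8.69-fold higher in PC. Clu, which encodes the chaperone clusterin, stood at 0, 46.5 and 152 CPM and the adhesion molecule Vcam1 at 0, 40.3 and 86.6 CPM. The acute phase gene Saa3 stood at 3.38, 192 and 571 CPM. Of 14 loop, distal tubule and collecting duct markers 3 reached 20 UMIs on a side, of 13 stromal markers 5 in TIL and 1 in PC, and of 6 podocyte markers none. Members of these lists reached that minimum through the tissue library, so their direction was set by it. Sparc, a matrix protein of stromal cells, stood at 0, 68.3 and 59.3 CPM. Ren1, which encodes renin of the juxtaglomerular cells, stood at 1.69, 138 and 74.5 CPM, but 86 of its 178 UMIs in gated cells of TIL lay in 1 cell.

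**Figure D3:**
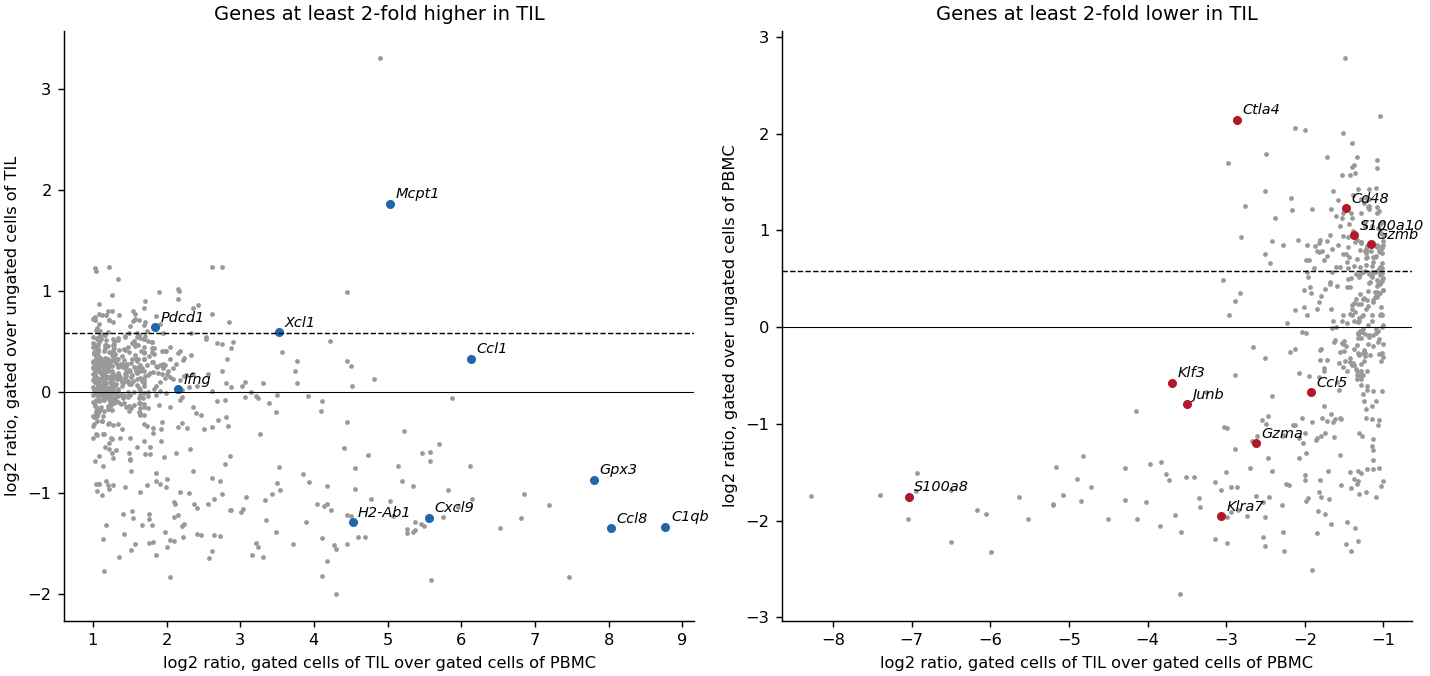
Each point is a gene called higher (left) or lower (right) in gated cells of TIL, with the log2 ratio of TIL over PBMC on the x axis and the log2 ratio of gated over ungated cells of the library on the higher side on the y axis, where the dashed line marks 1.5-fold. C1qb, Ccl8 and Gpx3, furthest above blood, lie below 0 on the y axis, whereas Xcl1 and Pdcd1 lie at the dashed line or just above it, and Ctla4 lies highest of the named genes on the right.

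Neutrophil markers had the lowest median of all lists: 0 of 14 measured members were at least 2-fold higher and 13 at least 2-fold lower in TIL, against 0 and 13 of 14 in PC, with medians of -5.81 in TIL and -5.22 in PC, or -5.27 and -5.01 with absent genes at their bound. Members near 0 in tissue, such as Cxcr2 and Mmp8, reached 20 UMIs only through blood, which set their direction. S100a8 (chr3:90668978-90670035), a subunit of calprotectin, stood at 13575 CPM (13279 to 13875) in PBMC, 102 CPM (85.7 to 121) in TIL and 94.2 CPM (72.2 to 121) in PC, log2 ratios of -7.04 and -7.16. Ungated cells held 45797, 92.0 and 119 CPM, and 98.8%, 2.71% and 3.85% of gated and 99.7%, 3.34% and 3.53% of ungated cells held a UMI, or 91.5%, 2.18% and 2.75% and 96.7%, 2.03% and 2.85% after thinning. A UMI of S100a8 was thus counted in nearly every blood barcode, gated or not, and does not mark neutrophils there. S100a9 (chr3:90692632-90695721), its partner, stood at 14352, 45 and 41.0 CPM and the resistin-like gene Retnlg at 2711, 20.9 and 13.7 CPM. The receptor Cxcr2 had no UMI in gated tissue cells and was at least 38.5-fold lower in TIL and at least 19.7-fold lower in PC.

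Natural killer cell markers that could be measured were mostly lower: 0 of 10 measured members were at least 2-fold higher and 8 at least 2-fold lower in TIL, against 1 and 7 of 10 in PC, with medians of -2.09 in TIL and -1.96 in PC. Klra7, Klra8 and Ncr1 were among the members that passed the minimum of 20 UMIs only through blood, with 35, 23 and 25 UMIs there. A gate of at least 3 UMIs moved these medians to -0.82 and -0.03, and thinning to -0.86 and -0.52. The Ly49 receptor genes Klra7 and Klra8 stood at 59.2, 6.20 and 3.04 CPM and 38.9, 2.33 and 7.60 CPM, and the activating receptor Ncr1 at 42.3, 4.65 and 10.6 CPM. Klra7 and Klra8 belong to a family of close copies whose reads may be split between them. Haemoglobin genes in gated cells lay below blood in TIL and above it in PC: Hbb-bs stood at 2866 CPM (2731 to 3006) in PBMC, 982 CPM (929 to 1038) in TIL and 11736 CPM (11476 to 12001) in PC, log2 ratios of -1.54 and 2.03, and in ungated cells at 8859, 1258 and 12871 CPM. In the gated cells 77.6%, 33.1% and 95.5% held a UMI of Hbb-bs, and in the ungated cells 79.3%, 32.6% and 94.6%, or 60.7%, 24.6% and 92.0% and 66.3%, 23.7% and 91.7% after thinning. Under a gate of at least 3 UMIs, Hbb-bs in TIL fell short of 2-fold (-0.92), thinning took the haemoglobin median in PC from 1.49 to 0.69, and in the whole table of PC none of 4 genes reached 2-fold, with a median of 0.17. Haemoglobin UMIs were thus counted in gated cells of all 3 libraries, and in the smallest share of them in TIL. B cell and plasma cell markers were measured for few genes, with 2 of 2 B cell markers higher in TIL and 0 of 2 in PC, and 3 of 4 plasma cell markers higher in TIL and 1 of 2 in PC. The B cell median in TIL was 1.06 and fell under 2-fold with no minimum (0.71) and after thinning (0.78), and in whole tables it was -0.63 in TIL and -0.55 in PC with 0 of 6 members higher and 2 lower in each. No platelet marker reached 20 UMIs in gated cells.

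Glycolysis genes lay somewhat above blood in gated cells. In this list, 3 of 16 measured members were at least 2-fold higher and 1 at least 2-fold lower in TIL, against 4 and 1 of 14 in PC, with medians of 0.47 in TIL and 0.83 in PC. Across all genes 13.2% were higher and 8.41% lower in TIL, and 16.5% and 15.1% in PC, so the counts in TIL lay near these shares. Pyruvate kinase Pkm stood at 573, 1208 and 1822 CPM, lactate dehydrogenase Ldha at 1253, 2448 and 2275 CPM and Gapdh at 643, 1232 and 1237 CPM, while the glucose transporter Slc2a3 was lower at 42.3, 11.6 and 13.7 CPM. Slc2a3 passed the UMI minimum only through blood. That minimum therefore set its call as lower in TIL and its direction in PC. Over all kept cells, 8 of 16 members in TIL and 9 of 16 in PC were higher. The list medians over all kept cells were 0.99 in TIL and 1.12 in PC. Thinned cells put the gated median in PC at 1.24, and Ldha and Gapdh past the 2-fold mark in both (1.27 and 1.16, and 1.74 and 1.71), but Pkm under it in TIL (0.98), as did median-ratio scaling (0.88). Nuclear genes of oxidative phosphorylation had medians of 0.43 in TIL and 0.42 in PC with 1 of 35 and 3 of 35 genes higher in gated cells and 9 and 11 of 35 in whole tables, proteasome and antigen processing genes 0.35 in TIL and 0.41 in PC, actin and migration genes -0.29 in TIL and -0.36 in PC and transcripts of the mitochondrial genome -0.09 in TIL and -0.30 in PC. Cell cycle genes lay slightly lower, at -0.16 in TIL and -0.54 in PC, with 1 of 24 lower in TIL, 3 of 24 in PC and none higher, smaller shares than the 8.41% and 15.1% of all genes. Their whole-table medians were 0.36 in TIL and -0.01 in PC, with 2 and 1 of 24 higher and none lower. Ribosomal protein genes had medians of 0.07 in TIL and -0.45 in PC, with 3 of 84 and 15 of 82 lower. Rps28 stood at 4498, 2031 and 1073 CPM.

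Genes for S100 calcium-binding proteins were lower beyond the neutrophil pair: 1 of 8 measured members was at least 2-fold higher and 5 at least 2-fold lower in TIL, against 1 and 6 of 8 in PC. Over all genes 13.2% were higher and 8.41% lower in TIL, and 16.5% and 15.1% in PC. Thinning took the list median in TIL from -1.33 to -0.99. Unlike S100a10, S100a6 and S100a11 were not at least 1.5-fold higher in gated than ungated blood cells. S100a10, the annexin A2 partner, stood at 2549.9 CPM (2423 to 2682) in PBMC, 984 CPM (931 to 1039.9) in TIL and 696 CPM (634 to 763) in PC and at 1320.3, 843 and 633 CPM in ungated cells, S100a6 at 4226, 1733 and 1425 CPM and S100a11 at 1627, 395 and 394 CPM. Cd48, an adhesion protein of lymphocytes, stood at 867, 311 and 217 CPM and the T cell kinase Prkcq at 209.7, 76.8 and 62.3 CPM, while Psat1, an enzyme of serine synthesis, was higher with 59.2, 195 and 147 CPM. Thinning took S100a10, Cd48 and Prkcq in TIL under the 2-fold mark (-0.78, -0.87 and -0.59), and Prkcq in PC (-0.85).

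**Figure D4:**
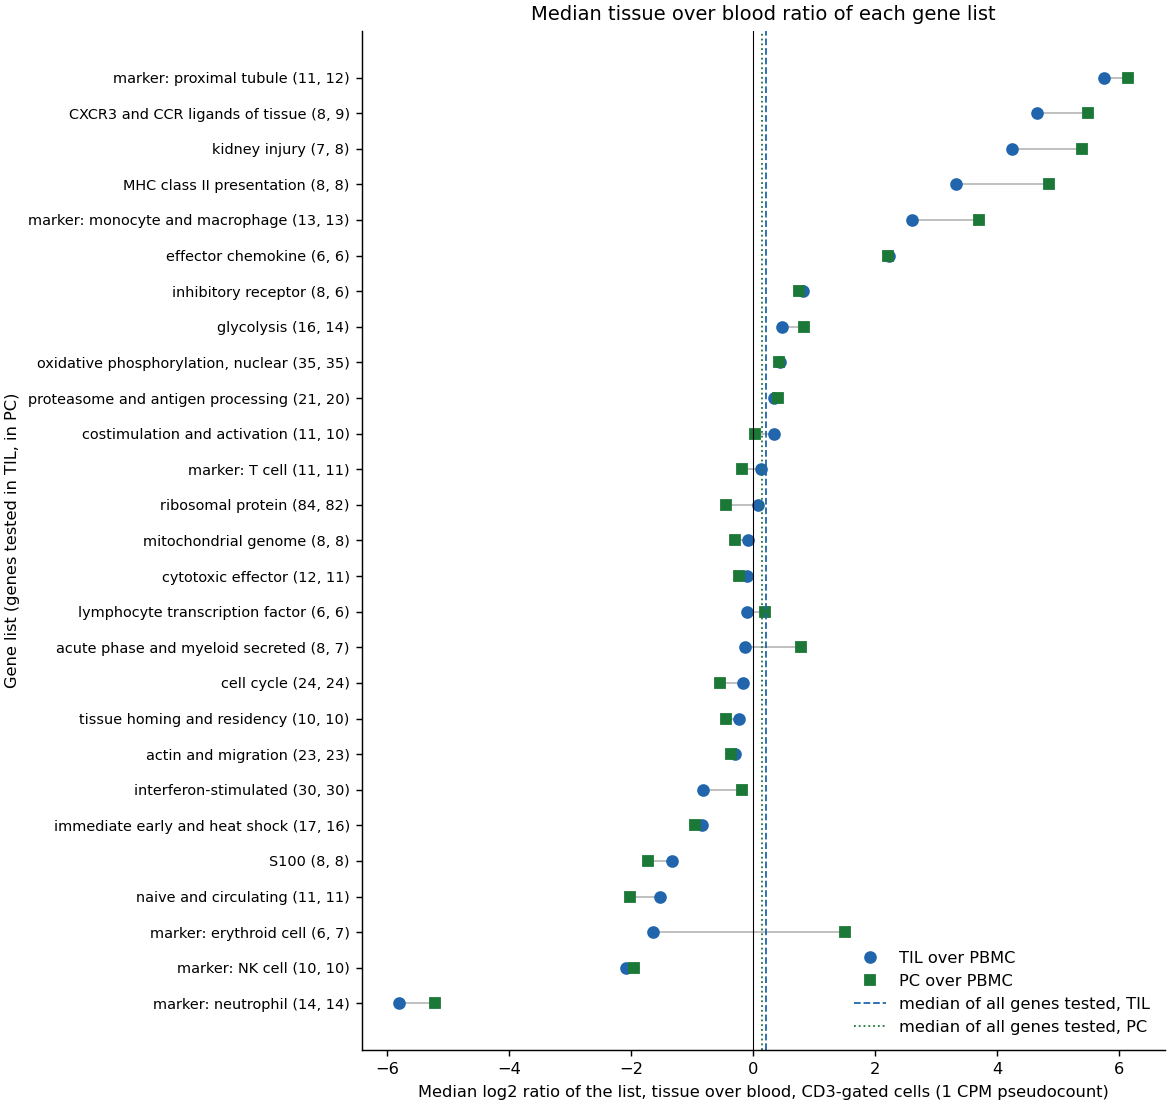
Median log2 ratio over PBMC of the gene lists with enough measured members, in gated cells of TIL (circles) and PC (squares), with the number of members measured in each beside the name and vertical lines at 0 and at the median of all genes. Proximal tubule, chemokine ligand, kidney injury and MHC class II lists lie furthest above 0, neutrophil markers furthest below, and erythroid markers lie below 0 in TIL and above it in PC. This order depends on the added 1 CPM. With absent genes at their bound, kidney injury in TIL was 1.81, below monocyte and macrophage markers at 2.61.

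Whole tables, which sum all cells with at least 300 UMIs, were compared in the same way. In them, fewer cells of a type and less RNA per cell cannot be told apart. In TIL, 1502 of 8313 genes were higher than in blood (18.1%) and 1225 lower (14.7%), and in PC 1583 of 7931 were higher (20%) and 1431 lower (18.0%). The medians of all genes were 0.23 and 0.16, and median-ratio scaling gave 1019 higher and 1587 lower genes in TIL and 1303 higher and 1654 lower in PC. Ccl8, C1qa, Gpx3 and Guca2b were again among the leading genes above blood, and S100a9, S100a8, Retnlg, Cxcr2 and Hdc among those below. Kap was among the leading genes above blood in both whole tables, but in gated cells only in TIL.

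Xcl1, Gzma and Ctla4 were on the same side of blood in whole tables as in gated cells. Whole tables held 45.9, 503 and 286 CPM of Xcl1, log2 ratios of 3.43 and 2.62, 4723, 479.6 and 476 CPM of Gzma, log2 ratios of -3.30 and -3.31, and 368, 94.3 and 43.2 CPM of Ctla4, log2 ratios of -1.95 and -3.06. Whole-table medians of naive and circulating genes were -1.94 in TIL and -2.23 in PC, with 10 of 15 and 13 of 15 members lower and none higher. Class II genes had whole-table medians of 2.13 in TIL and 2.92 in PC, interferon-stimulated genes -1.30 in TIL and -1.12 in PC with 19 and 18 of 34 lower, NK cell markers -3.84 in TIL and -4.02 in PC and neutrophil markers -6.61 in TIL and -6.39 in PC. Interferon-stimulated genes thus lay further below blood in whole tables than in gated cells, although with a minimum of 500 UMIs their whole-table medians were -0.94 and -0.61. T cell markers had whole-table medians of 0.54 in TIL and 0.30 in PC, endothelial markers 1.34 in TIL and 1.14 in PC on 5 genes, and dendritic cell markers 1.74 in TIL and 2.31 in PC on 4 and 3 genes. The dendritic cell median in TIL fell to 0.62 with a minimum of 500 UMIs and to 0.49 after thinning, and that in PC to 0.88 after thinning. Acute phase and myeloid secreted genes lay at -1.50 in TIL and -0.61 in PC in whole tables and at -0.13 in TIL and 0.79 in PC in gated cells, where the value in TIL became -1.33 with a minimum of 500 UMIs and -2.01 after thinning.

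The same gate and rule were applied to the heart and liver libraries of the series, each against the blood library of the same organ label, for values beside those of kidney. The library labelled heart TIL held 113 CPM of albumin (Alb) and none of the cardiac myosin gene Myh6, while that labelled liver TIL held no Alb, 11.1 CPM of the cardiac actin gene Actc1 and 1.17 CPM of Myh6, so the organs of these libraries are given as labelled only. Xcl1 was above blood in every one of them, with log2 ratios of 5.28 for the library labelled heart TIL, 4.22 for that labelled liver TIL and 3.24 for liver PC. Gzma, at -2.62 and -2.43 in kidney TIL and PC, had log2 ratios of 0.61 for the library labelled heart TIL, -1.15 for that labelled liver TIL and 0.42 for liver PC. Ccl5 had 0.19 for the library labelled heart TIL, -0.59 for that labelled liver TIL and 0.26 for liver PC, Ctla4 had 0.32 for the library labelled heart TIL, 0.70 for that labelled liver TIL and 1.81 for liver PC and Junb had -0.47 for the library labelled heart TIL, 0.37 for that labelled liver TIL and -0.02 for liver PC. The kidney values of Gzma, Ccl5, Ctla4 and Junb were the lowest of these ratios. That was not tested and rests on 1 blood library per label, and organ and library cannot be told apart.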

How the data were processed

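The 3 kidney tables and 5 tables of heart and liver libraries hold UMI counts per gene and barcode, with 10000 barcodes each, as deposited by the authors. Per the study's methods, reads were split by barcode with the Drop-seq tools, aligned to GRCm38 with STAR, freed of multiply aligned reads and tagged with GENCODE genes, and UMIs 1 edit apart were merged. The GENCODE release was not given in the sources used here. The authors also removed cells under 500 UMIs or over 10% mitochondrial transcripts before their own steps, and the deposited tables still hold barcodes below 500. bcl2fastq is named in the submitters' processing notes.

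Cells with at least 300 UMIs were gated as described, summed per library and compared as CPM in Python 3.11.15 with numpy 2.4.6, scipy 1.17.1, pandas 2.3.3 and matplotlib 3.10.9. Intervals are exact Poisson for counts and Clopper-Pearson for shares. Thinning drew 300 UMIs per cell without replacement, seed 0. Doublets were not called. No test was run, since each side is 1 library. The ratio was tested on simulated data with known folds. In each comparison the 15 highest and 15 lowest genes among those at least 2-fold apart and members of 35 gene lists could be named. Some of these genes are not reported here. The members, lists and thresholds were chosen with earlier results of these data known. Positions are from GENCODE M21 and promoters from RefSeq, both on GRCm38. Other barcode minimums, gates, pseudocounts, gene minimums and scalings were tried, and shared barcodes left out.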

Additional observations from a re-analysis of the deposited data

Results flagged for a closer look

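In gated cells, 4 members of the gene lists lay at least 2-fold to 1 side of blood in both kidney libraries and at least 2-fold to the other side in each of the heart and liver libraries of the series. None of these differences was tested. Log2 ratios are given for kidney TIL and PC first, then for the libraries labelled heart TIL, liver TIL and liver PC, each over the blood library of the same organ label. Cxcl2, a neutrophil attractant, stood at -5.08 in kidney TIL, on 5 UMIs against 97 in blood, and was at least 36.0-fold lower in kidney PC, where it had no UMI and the level of 3 counts was used. It stood at 2.85 in the library labelled heart TIL. Gated cells of the liver blood library held no UMI, where 3 counts would be 8.79 CPM, against 1428 CPM in the library labelled liver TIL and 530.3 CPM in liver PC. G0s2, an inhibitor of lipolysis, stood at -5.205 and -5.61 against 1.37, 2.74 and 2.15, the kidney values on 3 and 1 UMIs in the tissue libraries and 72 in blood. Rgs1, which dampens chemokine receptor signalling, stood at -1.425 and -2.15 against 3.20, 2.93 and 3.17. H2-DMb2, a class II peptide loading subunit, went the opposite way, at 3.426 and 5.05 in kidney against -2.16, -2.27 and -2.47. Gated kidney blood held 1 UMI of it, or 1.69 CPM (0.0428 to 9.42), so it passed the minimum of 20 UMIs only through the tissue libraries, with 36 and 58 UMIs, and its reads may be split with the close copy H2-DMb1.

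The ungated cells of kidney blood held more Cxcl2 and G0s2 in CPM than its gated cells. Each ratio rests on 1 blood library per organ, and the organ markers of the libraries labelled heart TIL and liver TIL went against their labels, so organ and library cannot be told apart here.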

How the results depend on the processing

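With a minimum of 500 UMIs the gated share was 36.7% in PBMC, 54.9% in TIL and 44.4% in PC, with no minimum 10.3%, 31.6% and 23.4%, after thinning 9.08%, 23.4% and 19.4%, with a gate of at least 3 UMIs 9.99%, 21.2% and 10.5%, and without cells that held UMIs of other cell types 0%, 5.57% and 0.0551%. TIL stood highest in each. In gated TIL, the 734 higher genes became 427 with a pseudocount of 10 CPM, 397 at 50 UMIs a gene, 2531 at 1 UMI, 479 with a gate of at least 3 UMIs and 54 among genes at least 1.5-fold higher in gated than ungated cells, a split chosen after seeing the data. The 468 lower genes became 205 at 50 UMIs a gene, 2489 at 1 UMI, 159 after thinning and 132 in that split. In gated PC, the 721 higher genes became 357 at 500 UMIs a cell, 376 at 50 UMIs a gene, 3782 at 1 UMI, 365 with the stricter gate and 29 in the split, and the 658 lower genes became 286, 3276, 169 after thinning and 266 in the split. In whole tables, 1502 higher genes in TIL became 903 at 500 UMIs a cell, 759 at 10 CPM and 2747 at 1 UMI a gene, and 1225 lower genes 701 at 10 CPM, 733 at 50 UMIs and 2150 at 1 UMI. In PC, 1583 higher genes became 701, 966 and 2858, and 1431 lower genes 840, 847 and 2640, under the same settings. Fewer genes and UMIs enter at higher minimums and in thinned cells. The other 66 counts stayed within 1.5 times. With median-ratio scaling the share of calls that were higher moved from 61.1% to 44.1% in gated TIL, 52.3% to 42.7% in gated PC, 55.1% to 39.1% in whole TIL and 52.5% to 44.1% in whole PC. Thinning moved it the other way, to 83.0% in gated TIL and 80.9% in gated PC, where the gene minimum lay at a higher CPM in blood than in tissue. A minimum of 500 UMIs put it at 37.2% in gated and 40.3% in whole PC, the stricter gate at 40.6% in gated PC and 1 UMI a gene at 50.4% in gated TIL. CPM without haemoglobin, mitochondrial and ribosomal protein genes put it at 46.0% in gated PC.

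Of 90 named genes called in gated TIL, 80 stayed at least 2-fold apart in the same direction under each of 12 alternatives in which the gene was measured. In gated PC 82 of 91 did. A gene below the UMI minimum of an alternative had no ratio there and was not counted as changed. None of these called genes changed sign. In gated TIL, Cxcr3 and Gzmk were under 2-fold at -0.08 and -0.25 and stood at 1.07 and 1.70 after thinning. The median of endothelial markers in gated TIL turned from 1.53 to -0.74 after thinning, on 2 genes. The cause was not tested. No paired analysis was possible because each group is 1 library and no test was run. A gene with no UMI in gated cells could lie at up to 5.07 CPM in PBMC, the bound that a count of 0 allows.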

Other observations

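Some transcripts of the TIL library lay in large part in single cells. Mcpt1 and Mcpt2, mast cell proteases, had 41 and 37 UMIs in gated cells, of which 34 and 32 lay in 1 cell, and neither was detected in PBMC or PC. Ighg2b, a heavy chain of antibody-secreting cells, had 21 UMIs in gated and 90 in ungated cells of TIL, with 63 of the latter in 1 cell, none in PBMC and 2 in PC. Renin (Ren1) was found in 79 gated and 104 ungated cells of TIL, with 86 and 97 UMIs in the highest cell of each, and in 46 gated and 128 ungated cells of PC with at most 3 UMIs in any. These genes were chosen after their values were seen.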
